A study of Homo sapiens with 8 samples.

Results

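GDF15 and 9 genes of the integrated stress response are described here in 8 RNA sequencing libraries of a leukaemia line. GDF15 was chosen for its large rise in this series. ATF4, ATF5, DDIT3, DDIT4, TRIB3, CHAC1, ASNS, PPP1R15A and XBP1 were listed for their roles in the response, and together they make 10 of the 34618 genes in the count table. The 4 RRM2_OE libraries came from THP1 cells, an acute myeloid leukaemia line, that carry the iRxI/AxA mutant and are also labelled RRM2 OE, and the 4 MOCK libraries from THP1 cells that carry an empty vector. All 8 were treated with doxycycline at 2 µg/mL, so the drug does not separate the groups. No label states that the replicates of a group are separate cultures or clones, so the p-values below measure only the spread between these libraries.

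The integrated stress response begins with kinases that phosphorylate the translation factor eIF2. General protein synthesis then slows, while the messages of ATF4 and a few other factors are translated better. ATF4 switches on genes of amino acid supply and redox balance and, with CHOP (the product of DDIT3), genes of stress feedback and cell death. ATF4 activity is set largely at translation, which transcript counts do not measure. GDF15 is a secreted cytokine of the TGF-beta superfamily that signals through GFRAL and RET and is induced by ATF4 and CHOP.

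RefSeq promoter windows of 300 bases (250 before the transcript start and 50 from it on, GRCh38.p14) were found for all 10 genes, 18 windows in all. The C/EBP-ATF response element that ATF4 binds was searched as TGATGNAA on both strands. It was present in the windows of 2 of the 10 genes, CHAC1 and ASNS, where a match in any window of a gene counted. Over single windows the share was 3.62% of all 35116. Over genes, with only the first listed window of each, it was 3.67% of 27305. The CHAC1 window (chr15:40953221-40953520, + strand) and the ASNS window (chr7:97872359-97872658, - strand) are printed with the match in capitals. Positions are counted from 0 at the first transcribed base. The match lay at -209 to -202 in CHAC1, read on the opposite strand, and at -68 to -61 in ASNS.
CHAC1: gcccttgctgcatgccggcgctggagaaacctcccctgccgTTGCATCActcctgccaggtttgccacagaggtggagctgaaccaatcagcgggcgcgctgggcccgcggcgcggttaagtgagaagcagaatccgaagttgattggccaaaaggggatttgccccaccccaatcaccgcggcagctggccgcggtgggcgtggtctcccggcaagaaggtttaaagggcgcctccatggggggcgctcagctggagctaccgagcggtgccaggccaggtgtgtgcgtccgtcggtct
ASNS: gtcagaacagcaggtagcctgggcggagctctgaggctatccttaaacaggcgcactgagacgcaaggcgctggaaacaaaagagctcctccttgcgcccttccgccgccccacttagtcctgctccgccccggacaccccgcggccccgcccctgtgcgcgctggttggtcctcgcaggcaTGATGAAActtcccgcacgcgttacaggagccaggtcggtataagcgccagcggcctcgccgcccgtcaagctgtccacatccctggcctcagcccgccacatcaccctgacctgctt

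PPP1R15A and XBP1 held other elements and are shown beside them. PPP1R15A (chr19:48872171-48872470, + strand) held the cyclic AMP response element TGACGTCA at -58 to -51, which 1.85% of windows held. XBP1 (chr22:28800520-28800819, - strand) held the ER stress response element, CCAAT and CCACG with 9 bases between them, at -52 to -34, which 0.0769% of windows held. The unfolded protein response element TGACGTGG was in no window of the 10 genes and in 0.729% of all windows, both strands being searched in each case. The windows of GDF15, ATF4, ATF5, DDIT3, DDIT4 and TRIB3 held none of these 4 elements. DDIT3, DDIT4 and TRIB3 were called higher in RRM2_OE, as were CHAC1 and ASNS, while ATF4 and ATF5 were not (values below). Any link of an element to a group difference was not tested. A match is only a match of letters, and its absence says only that the letters are not in these 300 bases.
PPP1R15A: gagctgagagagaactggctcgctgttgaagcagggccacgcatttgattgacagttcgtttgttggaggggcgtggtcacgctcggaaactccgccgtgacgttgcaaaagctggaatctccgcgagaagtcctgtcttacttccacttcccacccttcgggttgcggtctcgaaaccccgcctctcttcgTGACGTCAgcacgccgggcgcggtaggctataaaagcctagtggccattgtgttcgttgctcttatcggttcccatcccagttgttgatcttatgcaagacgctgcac
XBP1: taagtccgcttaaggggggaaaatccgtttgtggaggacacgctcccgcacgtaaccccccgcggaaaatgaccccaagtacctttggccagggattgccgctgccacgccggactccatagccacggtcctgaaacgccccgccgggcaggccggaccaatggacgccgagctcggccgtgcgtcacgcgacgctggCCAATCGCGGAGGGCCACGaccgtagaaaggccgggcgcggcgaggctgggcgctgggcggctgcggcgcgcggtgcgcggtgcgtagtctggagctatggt

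Library totals were even, at 10994255 to 11686152 counts over the 8 libraries, and RRM2 itself was higher in RRM2_OE (by 0.87 on the log2 scale, SE 0.05, with an edgeR adjusted p of 5.64e-07). All 9 markers listed for a monocytic leukaemia line were above 1 RPKM (reads per kilobase of exon and library size, as the authors give it) in every library. Of these 4 rose and 1 fell, with summed levels of 1474 to 1611 RPKM in RRM2_OE and 1395 to 1502 RPKM in MOCK. Markers were called at an edgeR adjusted p below 0.05, which 7.41% of all genes tested passed upwards and 5.42% downwards. The one that fell was the myeloid granule enzyme MPO, at 117 to 140.1 RPKM in RRM2_OE and 295 to 373 RPKM in MOCK (log2 fold change -1.39, edgeR adjusted p = 8.29e-06), and CD14, ITGAM, LYZ and CSF1R rose by 0.25 to 0.41 on the log2 scale. CDKN2A, a gene commonly described as deleted in THP-1, stood at 11.3 to 12.5 RPKM in RRM2_OE and 10.1 to 12.4 RPKM in MOCK, which goes against the label, so the cells are called by it only as the labels give it. Of 13 markers of other lineages, 4 rose and 3 fell, 5 were below 1 RPKM in every library, and the summed level of all 13 was 154 to 165 RPKM in RRM2_OE and 151 to 172 RPKM in MOCK. The epithelial marker EPCAM, the fibroblast marker COL1A1, the B cell marker MS4A1 and the T cell marker CD3E were among the 5, while the T cell gene CD3D stood at 26.7 to 28.6 RPKM in RRM2_OE and 16.7 to 21 RPKM in MOCK. CD3D, the B cell gene CD79A and the megakaryocyte genes PPBP and ITGA2B were the 4 that rose. The erythroid genes HBG1, HBG2 and ALAS2 were the 3 that fell. ITGA2B stood at 64.9 to 68.3 RPKM in RRM2_OE and 56.8 to 62.4 RPKM in MOCK, and HBG2 at 19.1 to 23.9 RPKM in RRM2_OE and 29.4 to 37.2 RPKM in MOCK. The epithelial gene KRT8 stood at 2.5 to 3.77 RPKM in RRM2_OE and 2.93 to 3.08 RPKM in MOCK. The part of these and of the monocytic markers in the differences below was not tested. The second principal component separated replicates 1 and 3 from replicates 2 and 4 within each group (24.7% of the variance of log2 CPM, against 33.5% for the first, which separated RRM2_OE from MOCK), and each group holds both kinds.

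GDF15 (ENSG00000130513, chromosome 19, 18485541 to 18499986 of hg19, + strand) had 77, 66.2, 76.4 and 65.4 CPM (read counts scaled to TMM-adjusted library size) in RRM2_OE replicates 1 to 4, against 30.5, 22.5, 22.2 and 22.6 CPM in MOCK replicates 1 to 4. The 4 RRM2_OE libraries all lay above the 4 MOCK libraries, and within MOCK replicate 1 stood above the other three. Means were 71.3 ± 6.33 CPM in RRM2_OE and 24.4 ± 4.02 CPM in MOCK (SD, n = 4 each), a ratio of 2.92 and a fitted log2 fold change of 1.54. The gene was selected on this difference, so it is given as a description with no test. Fitted on the odd-numbered libraries alone it was 1.54, on the even-numbered ones 1.55, and without MOCK replicate 1 it was 1.67. In bulk RNA a change in level per cell and a change in the share of cells that make the transcript cannot be told apart, here and in every result that follows.

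Of the 9 other genes, 5 rose and 0 fell in RRM2_OE. The threshold was a Benjamini-Hochberg p of 0.05 over 15286 genes in edgeR's quasi-likelihood test, which 7.41% of all genes passed upwards, 5.42% downwards and 12.8% in either direction. The 5 were TRIB3, CHAC1, ASNS, DDIT3 and DDIT4. Their list was chosen with earlier results of this contrast known, so nothing is read from the share. The median log2 fold change was 0.31 over the 9 genes and -0.00 over all genes tested. At an unadjusted p below 0.05, 6 were higher and 1 was lower. The share of all genes at that cut-off is not given, so nothing is read from unadjusted counts, here or for the lists below. DESeq2 and limma-voom each called 5 higher and 0 lower. Over all genes DESeq2 called 948 higher and 735 lower, and limma-voom called 1112 higher and 806 lower. With replicate number as a block, 8 rose and 1 fell, beside 15.1% of all genes that rose, 14% that fell and 29.1% in either direction. A term for odd or even replicate number also gave 8 and 1, beside 15.9%, 14.9% and 30.8%. All RRM2_OE libraries lay above all MOCK libraries for 3 of the 9 (DDIT4, TRIB3 and ASNS) and below them for 0, beside 10.5% and 8.89% of all genes (19.4% in either direction). The plot of CPM by library shows each of the 10 genes in all 8 libraries.

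**Figure D1:**
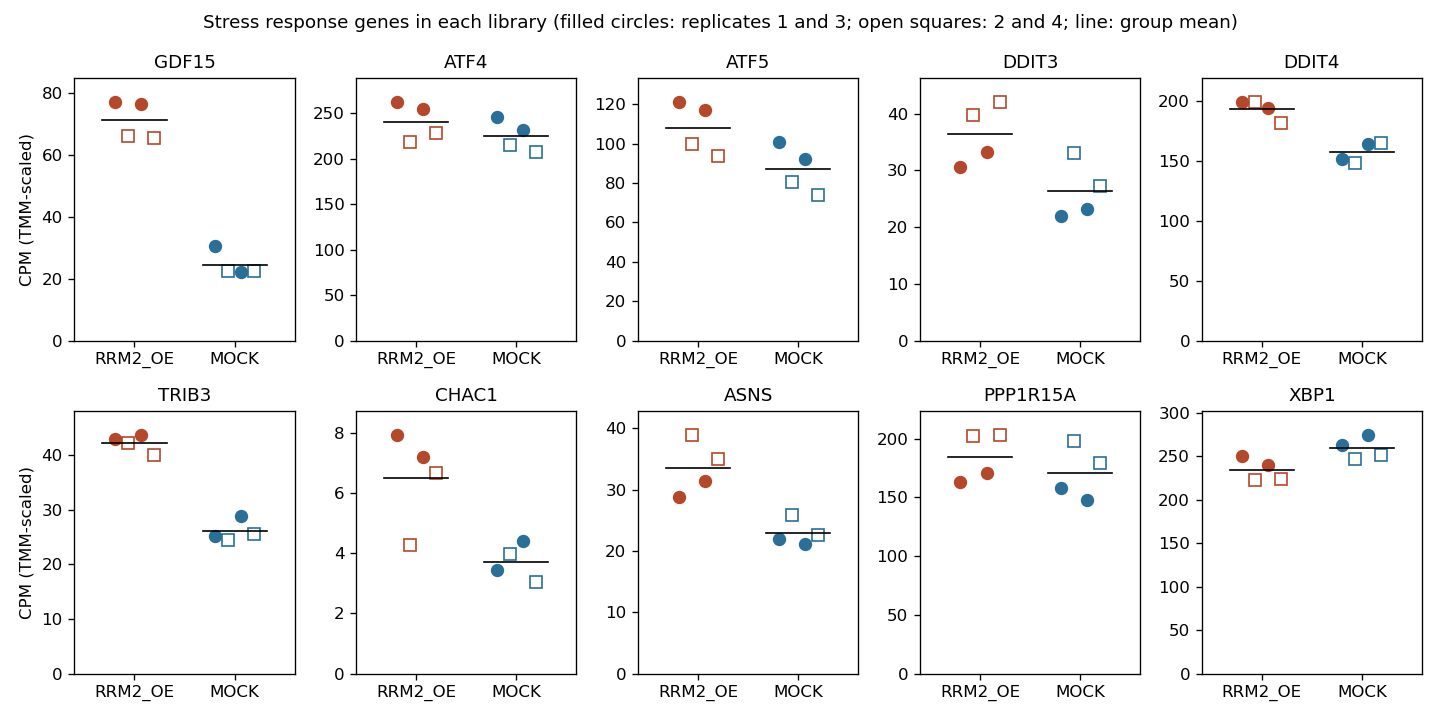
CPM on TMM-scaled library sizes (y axis, from 0) of the 10 genes in the 4 RRM2_OE and 4 MOCK libraries; filled circles are replicates 1 and 3, open squares replicates 2 and 4, and lines are group means. The groups stand apart for GDF15, DDIT4, TRIB3 and ASNS, while for ASNS and for ATF4, ATF5, DDIT3, PPP1R15A and XBP1 the replicate numbers split each group.

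Among the transcription factors, the ATF4 transcript differed little between the groups. ATF4 (ENSG00000128272, chromosome 22, 39915700 to 39918691), the central activator of the response, had 262, 218, 255 and 228 CPM in RRM2_OE and 246, 215, 231 and 207 CPM in MOCK. The groups overlapped, and in both of them replicates 1 and 3 lay above replicates 2 and 4. The log2 fold change was 0.10 (SE 0.07, adjusted p = 0.399), and it passed with replicate number as a block (edgeR adjusted p = 0.00921). Between libraries of the same replicate number, RRM2_OE was higher by 0.02 to 0.14 on the log2 scale in 4 of 4 comparisons. Replicate numbers did not show pairing of libraries, so these comparisons are only a description.

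ATF5 (ENSG00000169136, chromosome 19, 50431959 to 50437192), a related factor that is also controlled at translation, had 121, 99.6, 117 and 93.5 CPM in RRM2_OE and 101, 80.5, 92.3 and 73.7 CPM in MOCK. The groups overlapped, and as for ATF4 the odd-numbered libraries were high in both. The log2 fold change of 0.31 (SE 0.11, adjusted p = 0.0833) passed with the block (edgeR adjusted p = 4.43e-08), without MOCK replicate 1 (adjusted p = 0.0362) and with library sizes alone (adjusted p = 0.0437). ATF5 overlaps NUP62 and IL4I1 on the opposite strand. Whether counting used the strand is not given in the sources used here, so reads of these genes cannot be told apart with certainty.

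DDIT3 (ENSG00000175197, chromosome 12, 57910371 to 57914300), which encodes the pro-apoptotic factor CHOP, showed the opposite arrangement, with 30.5, 39.8, 33.3 and 42 CPM in RRM2_OE against 21.9, 33.1, 23.2 and 27.3 CPM in MOCK. Here replicates 2 and 4 were the high ones in both groups, and MOCK replicate 2 reached into the RRM2_OE range. DDIT3 rose by 0.46 on the log2 scale (SE 0.14, adjusted p = 0.0473). That call was lost on leaving out RRM2_OE replicate 2, 3 or 4 or MOCK replicate 1, 3 or 4 (edgeR adjusted p up to 0.112), and it was far below the threshold with the block (adjusted p = 6.85e-07). Its span overlaps 982 bases of MARS1, the methionine tRNA synthetase gene, on the opposite strand, and reads of the pair cannot be told apart with certainty.

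XBP1 (ENSG00000100219, chromosome 22, 29190543 to 29196585), the factor that IRE1 activates by splicing in the unfolded protein response, had 250.3, 223, 240.2 and 224 CPM in RRM2_OE and 263, 247, 274 and 251 CPM in MOCK. It was the one gene of the 10 with a negative log2 fold change, -0.14 (SE 0.05, adjusted p = 0.101). In same-numbered libraries, which did not show pairing, it was lower in RRM2_OE in 4 of 4 comparisons. With the block it passed (edgeR adjusted p = 0.000241). Counts per gene do not separate spliced from unspliced XBP1.

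The feedback genes differed from each other. TRIB3 (ENSG00000101255, chromosome 20, 361261 to 378203), a pseudokinase that restrains AKT and ATF4, had 43, 42.2, 43.7 and 40.0 CPM in RRM2_OE and 25.2, 24.5, 28.9 and 25.6 CPM in MOCK. Both groups were tight and did not overlap. TRIB3 rose by 0.70 on the log2 scale (SE 0.07, edgeR adjusted p = 3.96e-05), by 0.68 in replicates 1 and 3 and by 0.72 in replicates 2 and 4.

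PPP1R15A (ENSG00000087074, chromosome 19, 49375649 to 49379314), also called GADD34, directs a phosphatase to eIF2 and so ends the response. It had 163, 202, 171 and 203 CPM in RRM2_OE and 158, 198, 148 and 179.7 CPM in MOCK. The spread within a group, with replicates 2 and 4 high, was wider than the difference between the groups. The log2 fold change was 0.11 (SE 0.10, adjusted p = 0.525), and it passed with the block (edgeR adjusted p = 0.00808).

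The effector enzymes and DDIT4 all rose. ASNS (ENSG00000070669, chromosome 7, 97481430 to 97501854), asparagine synthetase, had 28.8, 38.9, 31.5 and 35 CPM in RRM2_OE and 21.9, 25.8, 21.2 and 22.6 CPM in MOCK. The lowest RRM2_OE library lay above the highest MOCK library, and within both groups replicates 2 and 4 were the high ones. ASNS rose by 0.55 on the log2 scale (SE 0.10, edgeR adjusted p = 0.00273).

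CHAC1 (ENSG00000128965, chromosome 15, 41245160 to 41248710), an enzyme that breaks down glutathione, was the least abundant of the 10, with 7.92, 4.27, 7.19 and 6.65 CPM in RRM2_OE and 3.43, 3.98, 4.39 and 3.05 CPM in MOCK. These rest on 91, 49, 83 and 77 reads in RRM2_OE and 39, 45, 49 and 34 reads in MOCK. RRM2_OE replicate 2 lay within the MOCK range, and the other three RRM2_OE libraries lay above it. CHAC1 rose by 0.81 on the log2 scale (SE 0.19, edgeR adjusted p = 0.0154). Leaving out single libraries kept the call, with adjusted p of 0.00201 to 0.0484 and log2 fold changes of 0.70 to 0.96.

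DDIT4 (ENSG00000168209, chromosome 10, 74033678 to 74035794), also called REDD1, is an inhibitor of mTORC1 that hypoxia and glucocorticoids also induce. It had 199, 199, 194 and 182 CPM in RRM2_OE and 152, 148, 164 and 165 CPM in MOCK, without overlap and with no split by replicate number. DDIT4 rose by 0.30 on the log2 scale (SE 0.05, edgeR adjusted p = 0.00225). DDIT4-AS1, which lies wholly inside the DDIT4 span on the other strand, averaged 127 ± 12.5 CPM in RRM2_OE and 103 ± 9.71 CPM in MOCK (SD, n = 4 each), a log2 fold change of 0.31 (SE 0.08, edgeR adjusted p = 0.0242). The antisense call was lost without RRM2_OE replicate 1 or 3 or MOCK replicate 2 or 4 (adjusted p up to 0.0681). With the strand setting not given, reads of the pair cannot be told apart.

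**Figure D2:**
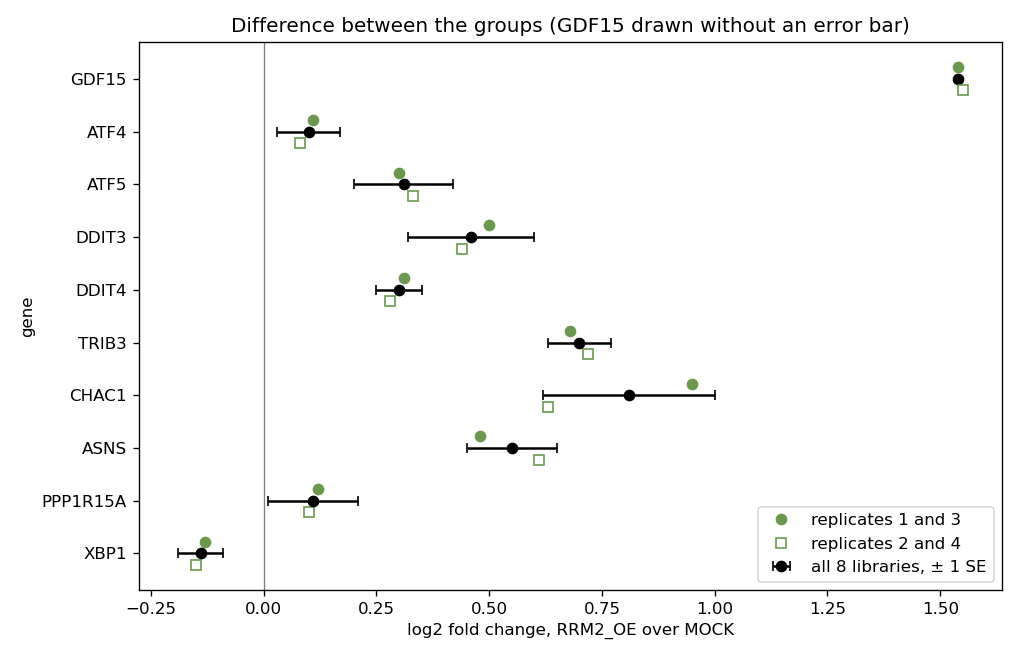
Log2 fold change of RRM2_OE over MOCK (x axis) for the 10 genes (rows): black points with bars are the fit over all 8 libraries ± 1 SE, filled green points replicates 1 and 3, and open green squares replicates 2 and 4. GDF15 at 1.54 stands far to the right of the others, CHAC1 at 0.81 and TRIB3 at 0.70 come next, and XBP1 alone is below 0.

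Levels per exon length were compared in the authors' RPKM values. In RRM2_OE the order of mean levels was ATF4 (95.9 RPKM), DDIT4 (94.2), XBP1 (77.6), PPP1R15A (60.0), ATF5 (36.5), GDF15 (34.2), DDIT3 (31), TRIB3 (14.4), ASNS (7.56) and CHAC1 (3.18 RPKM). In MOCK it was ATF4 (88.8 RPKM), XBP1 (84.8), DDIT4 (76), PPP1R15A (55), ATF5 (29.2), DDIT3 (22.3), GDF15 (11.6), TRIB3 (8.78), ASNS (5.11) and CHAC1 (1.8 RPKM). Libraries of neighbouring genes overlapped between ATF4 and DDIT4 and among ATF5, GDF15 and DDIT3 in RRM2_OE, and between ATF4 and XBP1, XBP1 and DDIT4, and ATF5 and DDIT3 in MOCK. The other neighbours in each order did not overlap. GDF15 lay above 91.3% of tested genes in RRM2_OE and above 69.7% in MOCK, a description of the gene chosen for its rise, whereas ATF4 lay above 98% in RRM2_OE and 97.8% in MOCK.

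**Figure D3:**
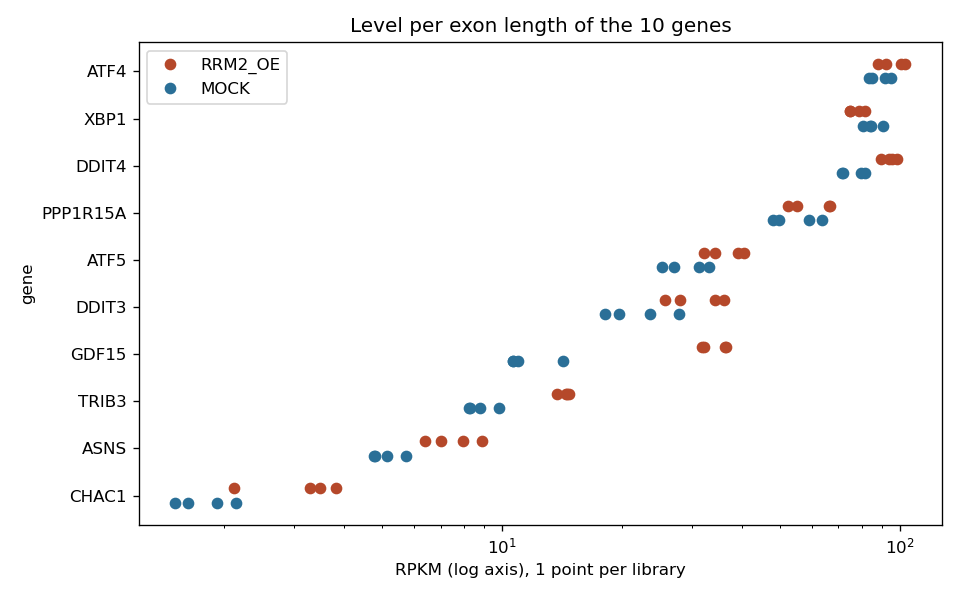
Authors' RPKM of the 10 genes (rows, ordered by the MOCK mean) on a log axis, 1 point per library, RRM2_OE in red above MOCK in blue. In RRM2_OE the GDF15 points, at 31.7 to 36.5 RPKM, fall among those of ATF5 and DDIT3, and in MOCK, at 10.6 to 14.2 RPKM, they lie between those of DDIT3 and TRIB3.

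The split by replicate number ran through the stress genes in 2 directions. In a fit with both terms, replicates 1 and 3 were higher than replicates 2 and 4 by 0.35 on the log2 scale for CHAC1, 0.31 for ATF5, 0.22 for GDF15, 0.19 for ATF4, 0.12 for XBP1, 0.09 for TRIB3 and 0.03 for DDIT4. The difference was -0.38 for DDIT3, -0.29 for PPP1R15A and -0.24 for ASNS. Odd and even libraries did not overlap in either group for ATF4, ATF5 and XBP1, which were higher in the odd ones, and for DDIT3, PPP1R15A and ASNS, which were lower. These are 6 of the 10 genes, beside 33.6% of all genes tested (16.7% higher and 16.9% lower in odd-numbered libraries). The split was first seen in these data and the labels give no batch, so it is described without a test. For DDIT3 its size, -0.38, was close to that of the group difference, 0.46, and for ATF4 and PPP1R15A it was the larger of the 2.

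**Figure D4:**
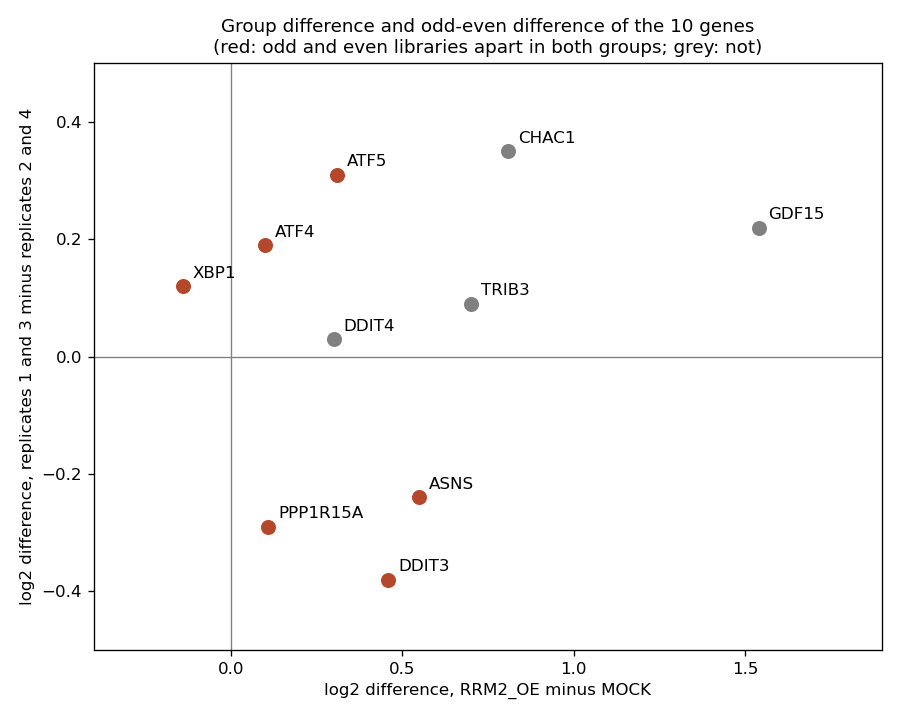
Log2 difference of RRM2_OE minus MOCK (x axis) against the log2 difference of replicates 1 and 3 minus replicates 2 and 4 (y axis), 1 point per gene; red points are genes whose odd and even libraries do not overlap in either group. DDIT3, ASNS and PPP1R15A lie below 0 on the y axis, between -0.38 and -0.24, and the other 7 genes lie above it.

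Genes upstream of ATF4 were counted next. The counts of this list and of those that follow stand beside 7.41% of all genes called higher and 5.42% called lower. With the block these shares were 15.1% higher and 14% lower. Of 9 kinases and kinase regulators tested, 0 rose and 2 fell (4 fell with the block, edgeR), with a median log2 fold change of -0.10. At an unadjusted p under 0.05, 0 were higher and 3 lower, and DESeq2 called 0 higher and 2 lower. The 4 eIF2 kinases gave log2 fold changes of -0.15 for the haem-regulated kinase EIF2AK1 (adjusted p = 0.0801, and 0.000166 with the block), -0.01 for the double-stranded RNA sensor EIF2AK2 (0.959), 0.08 for the ER kinase EIF2AK3, or PERK (0.569), and -0.13 for the amino acid sensor EIF2AK4, or GCN2 (0.302, and 0.0236 with the block, edgeR). The 2 that fell were OMA1, a mitochondrial protease that relays stress to EIF2AK1, by 0.31 on the log2 scale (adjusted p = 0.00669), and GCN1, which activates GCN2, by 0.18 (adjusted p = 0.0162, 0.0513 without RRM2_OE replicate 3 and 0.0633 on log2(RPKM + 1), edgeR and limma). The next list of 16 held genes for eIF2, its exchange factor eIF2B and the eIF2 phosphatase, and the other factors EIF2A, EIF2D, DENR and MCTS1. Of the 16, 0 rose and 1 fell (1 rose and 3 fell with the block). At an unadjusted p under 0.05 in edgeR's test 1 was higher and 3 were lower, and DESeq2 called 0 higher. The one that rose with the block was EIF2S2, an eIF2 subunit, at 0.11 (edgeR adjusted p = 0.129, and 0.0306 with the block). The gene that fell was EIF2A, an alternative initiation factor distinct from eIF2, at -0.24 (SE 0.04, edgeR adjusted p = 0.00312), while the phosphatase subunits PPP1CA and PPP1CB gave -0.01 and -0.03 and PPP1CC gave -0.14 (edgeR adjusted p = 0.0885, and 0.00111 with the block).

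Other targets and partners of ATF4 moved in part. Of 18 tested partners and effectors, 10 rose and 1 fell (12 and 2 with the block), with a median of 0.27. ATF3, a stress-induced partner of ATF4, averaged 38.5 ± 1.92 CPM in RRM2_OE and 22.3 ± 3.46 CPM in MOCK (SD, n = 4 each; log2 fold change 0.79, adjusted p = 0.000193, edgeR). The mitochondrial enzyme PCK2 rose by 0.51 and the autophagy receptor SQSTM1 by 0.25 on the log2 scale, and the ER oxidase ERO1A gave -0.05 (adjusted p = 0.623). SESN2, a stress-inducible sestrin, and the death receptor TNFRSF10B were among those that rose, at 0.78 and 0.62, and both stand on more than 1 list. The gene that fell was KLHL24, at -0.33. Of 19 amino acid supply genes, 10 rose and 1 fell (12 and 2 with the block), with a median of 0.20. The count that rose was 6 without RRM2_OE replicate 1 and also 6 without MOCK replicate 3. PHGDH, the first enzyme of serine synthesis, averaged 52.5 ± 4.32 CPM in RRM2_OE and 26.9 ± 2.07 CPM in MOCK (SD, n = 4 each), and PSAT1, the second, rose by 1.25 on the log2 scale. The abundant transporters SLC38A2 (0.12, adjusted p = 0.08) and SLC7A5 (0.20, adjusted p = 0.415) passed only with the block (adjusted p of 0.00106 and 2.91e-07), and ALDH18A1, an enzyme of proline synthesis, fell by 0.22 (edgeR). Of 12 cytosolic tRNA synthetases, 2 rose (7 rose and 2 fell with the block), with a median of 0.10. They were WARS1, which interferon also induces, at 0.33, and MARS1 at 0.16, whose call was lost without any 1 of 6 libraries (RRM2_OE replicates 1, 3 and 4 and MOCK replicates 1, 2 and 4, adjusted p up to 0.0974, edgeR). IARS1 gave 0.01.

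In the ER and mitochondrial arms few genes passed without the block. Of 26 genes of the IRE1-XBP1 and ATF6 branch, 1 rose and 1 fell, with a median of -0.00. With the block 5 rose and 8 fell, beside 29.1% of all genes called with the block in either direction. HERPUD1, a component of ER-associated degradation, rose by 0.21, a call lost without RRM2_OE replicate 1, MOCK replicate 2 or MOCK replicate 3 (edgeR adjusted p up to 0.0631), the chaperone CALR fell by 0.23 (not called by limma on log2(RPKM + 1), adjusted p = 0.0668, or on log2(RPKM + 0.1), 0.0684), and CANX gave -0.15 (adjusted p = 0.129, and 2.45e-05 with the block). Of 11 mitochondrial stress genes, 0 rose and 0 fell by edgeR and by DESeq2, with 1 lower at an unadjusted p under 0.05 by edgeR's test and 2 that fell with the block. The 2 with the smallest adjusted p were SPG7 (-0.12, adjusted p = 0.128, and 0.035 with the block) and HTRA2 (-0.10), and the abundant HSPA9 and YME1L1 gave 0.06 and 0.04.

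Genes that act beside CHAC1 and DDIT4 were counted as well. Of 12 glutathione and redox genes, 2 rose (5 with the block): NQO1 by 0.29 and HMOX1 by 0.23 on the log2 scale, the HMOX1 call being lost without RRM2_OE replicate 1, 3 or 4 or MOCK replicate 2 or 4 (edgeR adjusted p up to 0.0852). GPX1 and TXNRD1, the most abundant on the list, gave 0.11 (adjusted p = 0.675, and 0.000753 with the block) and -0.03. Of 8 mTORC1 brakes and sensors, 2 rose and 1 fell (2 and 3 with the block). SESN1 and SESN2, stress-inducible sestrins that both stand on more than 1 list, were the rises, and DEPTOR, an mTOR inhibitor, averaged 4.32 ± 0.359 CPM in RRM2_OE and 8.4 ± 1.16 CPM in MOCK (SD, n = 4 each; log2 fold change -0.96, adjusted p = 0.00052, edgeR). TSC1 and TSC2 gave -0.13 and -0.11 and passed only with the block (edgeR adjusted p of 0.0157 and 0.0371). Of 6 glucocorticoid targets, 0 rose and 0 fell (1 rose with the block), with 2 higher at an unadjusted p under 0.05 by edgeR's test and 0 called by DESeq2. KLF9 had the largest log2 fold change among those named, 0.27 (adjusted p = 0.0702, and 0.0122 with the block), TSC22D3 gave 0.18, and FKBP5 and the receptor NR3C1 gave -0.01 and 0.03.

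For the GDF15 pathway itself, receptor transcripts were scarce. GFRAL had 0 to 3 counts in RRM2_OE and 0 to 1 in MOCK and did not pass the filter on low counts, and RET averaged 3.15 CPM in RRM2_OE and 3.09 CPM in MOCK. FURIN, a protease of the family that cleaves pro-forms of TGF-beta superfamily proteins, gave 0.03 on the log2 scale (adjusted p = 0.757), and PCSK6 gave -0.53 at 2.3 CPM in RRM2_OE and 3.34 CPM in MOCK (adjusted p = 0.106, and 0.0349 with the block, edgeR). Of the 9 tested genes of this list, 1 rose: INHBA, the activin A subunit, averaged 149 ± 6.16 CPM in RRM2_OE and 79.1 ± 6.54 CPM in MOCK (SD, n = 4 each; log2 fold change 0.91, adjusted p = 2.04e-06, edgeR). TGFB1 gave 0.05.

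**Figure D5:**
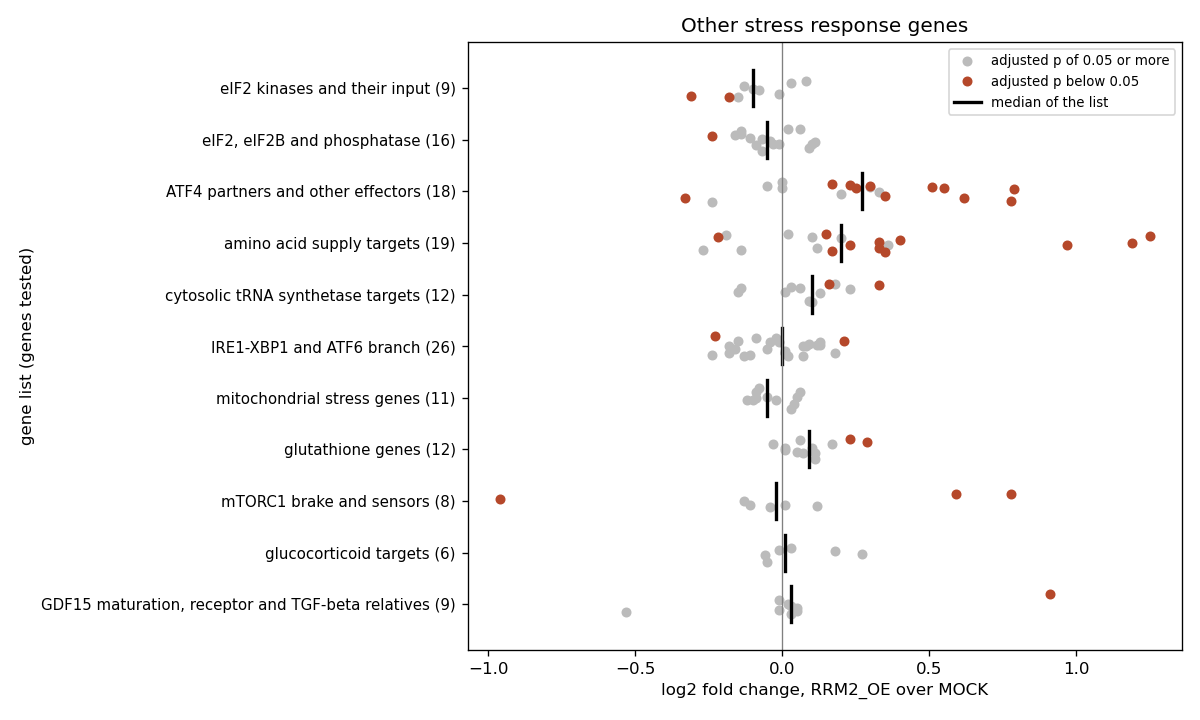
Log2 fold change of RRM2_OE over MOCK (x axis) for every tested gene of 11 lists (rows, with the number tested), red where the adjusted p is below 0.05, with black bars at list medians. Among these 11 lists the medians run from -0.10 for the eIF2 kinase list to 0.27 for the ATF4 partners, with the amino acid supply genes at 0.20 and the ER branch at -0.00.

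The genes whose profile was most like that of GDF15 were ranked by Pearson correlation of log2 CPM over the 8 libraries, among 11894 genes with a mean of at least 5 CPM. The closest were OLR1, an oxidised LDL receptor (r = 0.998), AC025423.4 (0.995), the oxysterol receptor GPR183 (0.993), the neutral amino acid transporter SLC1A4 (0.992) and the IgG receptor FCGR2A (0.992). By deviations from the group means they were TMEM219 (0.986), SMAP2 (0.977), SLC1A4 (0.972), the sialic acid receptor SIGLEC1 (0.97) and OLR1 (0.969). These libraries share 2 groups and 2 kinds of replicate number, so the values are a description of 8 points and carry no p. Of the 9 stress genes, TRIB3 stood highest in the first ranking, at place 155, and ATF4 in the second, at place 527. XBP1 stood lowest of the 9 in the first (r = -0.658, place 9912) and DDIT3 in the second (r = -0.71, place 10588). In the second PPP1R15A (-0.542), ASNS (-0.514), DDIT4 (-0.148) and TRIB3 (-0.0537) were also below 0.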

How the data were processed

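Poly(A) RNA of 4 RRM2_OE and 4 MOCK samples was sequenced from 200 ng of total RNA with a stranded kit, per the labels' protocols. Tools listed in the submitters' processing notes, without roles, are HTSeq 0.11.2, TopHat2 and bcl2fastq 2.18.0.12, with hg19 (GRCh37) as build. The annotation and the strand setting were not found in the labels. The authors deposited raw counts per Ensembl gene and, beside them, RPKM values. These equal the counts scaled by column total and listed exon length, with a largest absolute difference of 4.73e-06 RPKM.

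Symbols were assigned by Ensembl ID (24496 from current names, 8365 from GENCODE 29, 1757 unnamed). Members, lists, motifs and tests were chosen with earlier results of these data known. Counts were fitted with edgeR 4.0.16 in R 4.3.3: filterByExpr kept 15286 genes, all 10 members among them, TMM factors scaled the libraries, and a robust quasi-likelihood F test compared RRM2_OE with MOCK without covariates. Benjamini-Hochberg adjustment ran over the 15286 genes, and calls needed a value below 0.05. SE is the fitted log2 difference divided by the root of the F statistic. CPM are on TMM-scaled library sizes. The fit was checked on simulated data.

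Replicate number was used as a block only as an alternative, since no label says what libraries of the same number share. Deviations of same-numbered libraries from their group means correlated at 0.51, 0.48, 0.45 and 0.47. Libraries of like parity but another number correlated at 0.48 to 0.56 and those of unlike parity at -0.56 to -0.46, and 1 of 8 libraries was closest to its own number. These correlations followed the split of odd from even numbers and did not show pairing by number. Blocked values are printed where they change a call or a count by over 1.5 times.

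Named genes were the 10 members, the 4 eIF2 kinases, from each list the 2 lowest by adjusted p and the 2 highest by mean CPM, RRM2, and the 5 genes most like GDF15 by each measure. SESN2, TNFRSF10B, KLHL24, ALDH18A1, EIF2S2, RET, GFRAL, DDIT4-AS1, CDKN2A and the cell markers were named outside this rule, after their values were seen. Of 206 list entries 205 were matched, and 9 genes of the 12 lists had too few counts to test. The results of 1 list, of 1 motif and of 1 gene that the rule names are not reported here. Alternatives were RLE factors, unscaled library sizes, no filtering of low counts, at least 1 CPM in 4 libraries, DESeq2 1.42.0, limma-voom (limma 3.58.1), limma on log2(RPKM + 1) and log2(RPKM + 0.1), the replicate block, an odd/even term, replicates 1 and 3 or 2 and 4 alone, and leaving out each library.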

Additional observations from a re-analysis of the deposited data

Results flagged for a closer look

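Among 20 gene and group combinations (10 genes in 2 groups of 4 libraries), 1 library stood apart from the other three by Dixon's criterion, where chance alone flags about 1 in 20. It was MOCK replicate 1 for GDF15, at 30.5 CPM against 22.2 to 22.6 CPM in the other MOCK libraries. Without that library the log2 fold change of GDF15 was 1.67.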

How the results depend on the processing

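The counts of genes called over all genes were 1133 higher and 829 lower. With the replicate block they were 2303 and 2143, and with the odd/even term 2427 and 2277. In replicates 1 and 3 alone they were 1470 and 1330, and in replicates 2 and 4 alone 1391 and 1224. The lower count was 465 on log2(RPKM + 1) and 466 on log2(RPKM + 0.1). Leaving out 1 library at a time gave 808 to 937 higher and 542 to 607 lower. Of the 9 stress genes, 5 were higher and 0 lower; the block and the odd/even term each gave 8 and 1, replicates 1 and 3 alone and replicates 2 and 4 alone gave 6 and 1, and single omissions gave 4 to 5 and 0. Over the 145 genes tested of the 11 lists described, 27 were higher and 7 lower, with 45 and 27 under the block, 46 and 28 with the odd/even term, and 17 lower in replicates 1 and 3 and in replicates 2 and 4. The lower list count was 4 on log2(RPKM + 1) and on log2(RPKM + 0.1), and single omissions gave 18 to 23 higher and 6 to 8 lower. The block kept 1961 of the 1962 genes called without it, and among the members and list genes named it changed no call beyond those given beside their values. DDIT3 was no longer called without the low count filter (adjusted p = 0.165) or with limma on log2(RPKM + 1) (0.0726) or log2(RPKM + 0.1) (0.0714), and the cause was not tested. No called value turned its direction, while the uncalled values of PPP1CA, IARS1, TXNRD1, FKBP5, NR3C1, TGFB1, EIF2AK2 and TMEM219, all between -0.03 and 0.05, took the other sign under 1 to 8 alternatives. CHAC1, at 34 to 91 reads a library, is the gene that depth limits most.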
